A study of Bos taurus with 3 samples.

Results

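Cultured stromal cells of adipose tissue and of bone marrow were compared among cells with a low level of cell cycle genes. The choice was meant to lessen the part of dividing cells in the profiles, and it did not remove all cell cycle RNA. In each library the 20% of stromal cells with the lowest level of 8 cell cycle genes were kept, which gave 1217 cells from adipose tissue and 1659 from bone marrow. These 2876 low-cycling cells were chosen from 15369 cells of both libraries and from 18561 in the whole series. The cells came from primary, untreated, wild-type cultures of mesenchymal stromal cells (MSCs) from 1 healthy Holstein-Frisian cow in the first lactation, which grew in DMEM of low glucose content, with fetal bovine serum at 30%, until colonies could be seen. The library from peripheral blood of the same cow is used only as a reference. Each tissue gave 1 library, made with 3' single-cell chemistry that counts unique molecular identifiers (UMIs), so there is no replicate and no test, and a tissue cannot be told apart from its culture or its library. All intervals below are exact 95% intervals for counting error only.

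MSCs are fibroblast-like cells that attach to plastic and can be led towards bone, fat or cartilage in culture. Those of bone marrow belong to the skeletal lineage, which builds and mineralizes bone matrix under control of bone morphogenetic proteins (BMPs) and Wnt ligands, whereas those of adipose tissue belong to the connective tissue around vessels and fat cells. Cultured stromal cells often keep the HOX and other patterning genes of the body region they came from. Dividing cells make RNA for replication and mitosis that resting cells make little of, so cultures with different shares of dividing cells can differ in those genes.

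Cells were barcodes with at least 4439 UMIs in adipose tissue and 4415 in bone marrow, in which TYROBP, FCER1G and AIF1, genes of macrophages and other myeloid cells, made up under 0.02% of UMIs. This limit removed 0 of 6088 cells from adipose tissue and 984 of 9281 (10.6%) from bone marrow. Selected cells held a median of 13646 UMIs in adipose tissue and 8051 in bone marrow. They were therefore thinned to 4000 UMIs each, and levels are given as CPM, a share of UMIs multiplied by 1000000, over 4868000 UMIs of adipose cells and 6636000 of marrow cells. The selected cells of the libraries shared 0 barcodes.

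All 16 markers of fibroblast-like stroma had UMIs in both sets, with summed levels of 27928 CPM in adipose cells and 30320 CPM in marrow cells. Among the usual MSC surface markers, CD44 stood at 245 CPM in adipose and 213 CPM in marrow cells and ITGB1 at 708 and 850 CPM. NT5E (CD73) stood at 54.0 CPM in adipose and 128 CPM in marrow cells, and ENG (CD105) at 74.6 and 34.5 CPM. NT5E was under 2-fold apart without the macrophage limit. ENG was under 2-fold apart in 3 settings: 8000 UMIs per cell, a threshold of 8000 UMIs, and all stromal cells. THY1 (CD90), a defining MSC marker, was near the floor at 5.55 CPM in adipose and 2.56 CPM in marrow cells. PTPRC (CD45), the general blood cell marker, had 0 UMIs in adipose cells and 0.151 CPM in marrow cells.

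Markers of other cell types were measured in the selected cells. The 20 macrophage markers include the genes of the selection limit, so their level is in part fixed by it. They summed to 27.3 CPM in adipose tissue, with 14 of 20 at 0, and to 34.2 CPM in bone marrow, with 3 of 20 at 0, while the free RNA of the marrow library, read from barcodes of 10 to 100 UMIs, held 2519 CPM of them. Neutrophil markers summed to 1.03 CPM in adipose and 44.8 CPM in marrow cells, against 7322 CPM in the marrow's free RNA. Endothelial markers summed to 110 CPM in adipose and 1.96 CPM in marrow cells, and 18 adipose cells but 0 marrow cells held at least 5 endothelial UMIs. Adipocyte markers summed to 42.1 CPM in adipose and 23.8 CPM in marrow cells. Of 9 such markers 7 had UMIs in adipose and 6 in marrow cells, while ADIPOQ and LEP were at 0 in both sets. The marker FABP4 stood at 20.5 CPM in adipose and 3.92 CPM in marrow cells. Of its adipose UMIs, 98.0% lay in 86 cells that also held UMIs of endothelial genes. The part of cells of other types in the results was not tested except where a value is given.

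The genes of the score were TOP2A, MKI67, NUSAP1, UBE2C, CDK1, CCNB1, H3C3 and H2AC12, which act in chromosome segregation, mitotic entry and chromatin assembly. The score was the mean of log1p(UMIs per 10000), and the last cell inside and the next cell outside scored 0.294665 and 0.295042 in adipose tissue, 0.144566 and 0.144885 in bone marrow. The score was computed before thinning and was 0 in 19.5% of selected adipose and 53.1% of selected marrow cells. The 8 genes, whose levels chose the cells, summed to 165 CPM in adipose and 59.7 CPM in marrow cells, which was 11.1% and 4.54% of their level in the remaining stromal cells.

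Cell cycle genes outside the score were nearer to each other. Mitosis genes outside the score summed to 1593 CPM in adipose and 1138 CPM in marrow cells, 36.0% and 29.0% of their level in the remaining cells. Replication genes summed to 2001 and 1656 CPM, still 67.3% and 62.4% of their level in the remaining cells. Replication-dependent histones, a family whose near-identical members can share reads, summed to 372 and 298 CPM, 34.3% and 37.0% of that level. Adipose tissue was the higher by 1.40-fold, 1.21-fold and 1.25-fold, so that an equal share of cells had not brought the libraries to an equal cycling level. In the remaining cells adipose tissue was also the higher, at 4422 against 3921, 2974 against 2653 and 1086 against 805 CPM. With the score limit of bone marrow used in both libraries, median log2 ratios were -0.11 for mitosis and -0.05 for replication genes. That of the histones kept its sign.

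**Figure D1:**
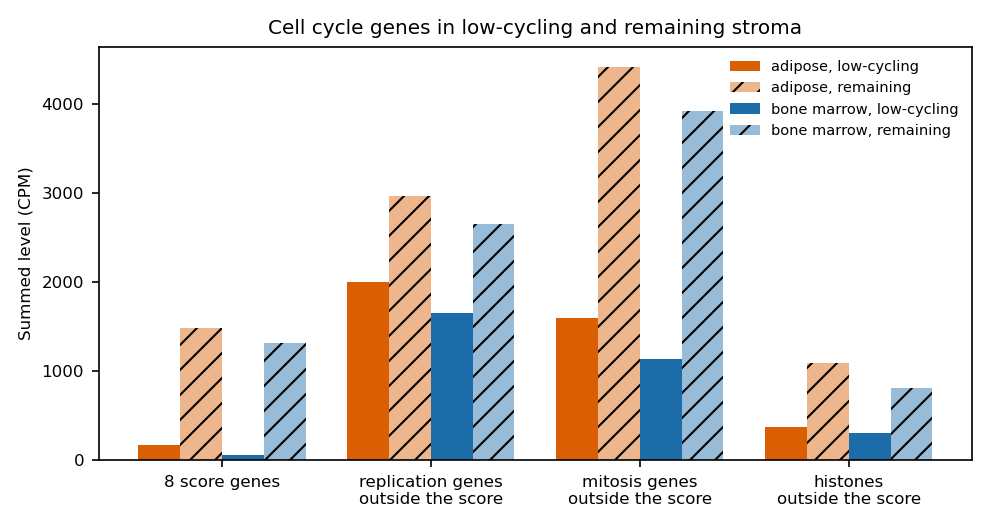
Summed level in CPM (vertical axis) of the 8 score genes and of 3 lists outside the score, in low-cycling (solid bars) and remaining (hatched bars) stromal cells of adipose tissue (orange) and bone marrow (blue). In low-cycling cells the score genes stood at 165 and 59.7 CPM and replication genes outside the score at 2001 and 1656 CPM.

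Of 3046 genes with at least 50 CPM in either library, 233 (7.65%) were at least 2-fold apart. Of these, 111 (3.64% of the genes) lay on the adipose side and 122 (4.01%) on the marrow side. The interval of the ratio lay wholly above 2 for 85 of the 111 and for 101 of the 122. The genes higher in marrow were further apart, with a median of 3.82-fold and 32 genes at 10-fold or more, against a median of 2.99-fold and 15 such genes for adipose tissue. The same direction was seen in the free RNA of the 2 libraries for 108 of the 111 and all 122. The free RNA comes from the same libraries as the cells, so this is a description and no separate support.

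Bone-forming genes were the clearest group on the marrow side. Of 10 measured genes of a list of 20 osteogenic genes (those with a mean of at least 10 CPM over the libraries), 6 were at least 2-fold higher in marrow and 0 in adipose cells. The list's median log2 ratio of adipose over marrow was -3.71, against 0.08 over 6812 measured genes. Of these 6812 genes, 122 were at least 2-fold higher in marrow and 111 in adipose cells. Those counts are the background for this list and for the lists below. The lists were written with earlier results of these data known, so the direction of a list is a description. TMEM119, also a gene of bone-forming cells but outside this list, was higher in adipose cells, at 125 against 31.3 CPM.

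BMP2, a secreted inducer of bone, stood at 4.31 CPM (2.67 to 6.59) in adipose and 262 CPM (250 to 275) in marrow cells, a ratio of 60.8 (39.7 to 98.5). SPP1 (osteopontin), a mineral-binding phosphoprotein of bone matrix, stood at 63.9 CPM in adipose and 1137 CPM in marrow cells, a 17.8-fold difference (15.88 to 19.99). SPP1 is also made by macrophages, and it reached 4583 CPM in the 984 marrow cells above the macrophage limit and 2377 CPM in the marrow's free RNA, against 103 CPM in that of adipose tissue. ENPP1, which makes the mineralization inhibitor pyrophosphate, stood at 4.31 and 150 CPM (34.8-fold), and ANKH, which lets pyrophosphate out of the cell, at 46.6 and 137 CPM (2.94-fold). Genes that promote and genes that restrain mineralization were thus both higher in marrow cells.

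Transcription factors of the bone lineage were low throughout but nearly all on the marrow side. DLX5, a homeobox factor of bone development, had 1 UMI in adipose cells (0.205 CPM) and stood at 75.5 CPM in marrow cells, a ratio of 368 with a wide counting interval (65.7 to 14545). SP7 (osterix), the factor of committed bone precursors, stood at 2.26 CPM in adipose and 35.7 CPM in marrow cells. RUNX2, the master factor of the lineage, stood at 45.8 CPM in adipose and 66.8 CPM in marrow cells, under 2-fold apart. SPARC (osteonectin), which fibroblasts also make, was almost level at 2147 and 2313 CPM.

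Adipogenic genes did not form such a group on the adipose side. Of 6 measured adipogenic genes, CEBPD, an early factor of fat cell formation, was at least 2-fold higher in adipose cells, at 170 CPM against 68.9 CPM in marrow cells. PLIN2, which coats lipid droplets, stood at 335 CPM in adipose and 506 CPM in marrow cells. FASN, the fatty acid synthase, stood at 47.9 and 43.9 CPM. Without the macrophage limit CEBPD was under 2-fold apart. A separate list of adipose progenitor genes had a median log2 ratio of 1.27 over 8 measured members, with 1 at least 2-fold higher in each tissue. A list of marrow stroma genes had a median of 0.91 over 4 measured members, with 2 at least 2-fold higher in adipose and 1 in marrow cells.

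Ligands and antagonists of the BMP and TGF-beta pathway were divided between the tissues. Of 23 measured members, 5 were at least 2-fold higher in marrow and 2 in adipose cells. BMP4 stood at 5.14 CPM in adipose and 59.4 CPM in marrow cells (11.6-fold), and GREM1, a secreted BMP antagonist, at 3.29 and 99.2 CPM (30.2-fold). FST (follistatin), which traps activins and some BMPs, had the opposite pattern, with 174 CPM in adipose and 12.1 CPM in marrow cells (14.5-fold, 11.5 to 18.4). Ligand and antagonist were thus higher together in marrow cells, while adipose cells had another antagonist.

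Receptors and targets were apart in some cases and close in others. The type I receptor BMPR1B was higher in adipose cells, at 52.4 against 14.5 CPM, while BMPR1A stood at 17.9 and 18.1 CPM and BMPR2 at 60.2 and 74.3 CPM. Under the 50 CPM limit, the co-receptor TGFBR3 stood at 41.3 CPM in adipose and 7.53 CPM in marrow cells, and the decoy receptor BAMBI at 2.47 and 30.7 CPM. SMAD7, an inhibitor that the pathway induces, was 2.14-fold higher in marrow cells, at 61.2 against 28.6 CPM. It was under 2-fold apart in 4 of 19 settings, among them no macrophage limit and the score limit of bone marrow in both libraries. ID1, a direct target of BMP signalling, stood at 1170 CPM in adipose and 998 CPM in marrow cells. ID2 and ID3 stood at 390 and 294 CPM in adipose cells and at 233 and 178 CPM in marrow cells. The ID genes were under 2-fold apart, and BMP2 and BMP4 were over 10-fold apart. The log2 ratio of ID1 was 0.23 in low-cycling and -0.52 in remaining stromal cells. A link between these ligands and the ID genes was not tested.

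The Wnt pathway had its members at both extremes. Of 10 measured members, 2 were at least 2-fold higher in adipose and 2 in marrow cells. SFRP2, a secreted Wnt modulator, stood at 223 CPM (210 to 236) in adipose and 0.904 CPM (0.332 to 1.97) in marrow cells, a ratio of 246 (113 to 673). RSPO3, which strengthens Wnt signals, was also higher in adipose cells, at 73.3 against 17.0 CPM (4.31-fold). DKK1, a secreted Wnt antagonist, showed the opposite pattern, with 3 UMIs in adipose cells (0.616 CPM) and 81.8 CPM in marrow cells, a ratio of 133 (45.2 to 646). The ligand WNT5B stood at 7.395 and 101 CPM (13.6-fold). A different secreted modulator of the pathway was thus high in each tissue.

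Interleukin-6 and the receptor for interleukin-33 separated the tissues among immune signals. IL6 stood at 8.63 CPM (6.22 to 11.7) in adipose and 466 CPM (449 to 482) in marrow cells, a ratio of 54.0 (39.8 to 75.0). IL1RL1 (ST2), the receptor for IL-33, stood at 748 CPM (724 to 773) in adipose and 3.47 CPM (2.20 to 5.20) in marrow cells, a ratio of 216 (144 to 341). Of 15 measured chemokines, inflammatory cytokines and their receptors, 4 were at least 2-fold higher in adipose and 1 in marrow cells.

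The other members that passed both the 2-fold and the 50 CPM limit were higher in adipose cells, while CCL5, at 6.57 CPM in adipose and 31.0 CPM in marrow cells, lay under the second limit. CSF1, which keeps macrophages alive, stood at 1582 CPM in adipose and 543 CPM in marrow cells (2.92-fold). CXCL12, a chemokine that holds blood stem cells in marrow, was also higher in adipose cells, at 290 against 68.9 CPM (4.21-fold). CCL2, which draws monocytes, stood at 299 CPM in adipose and 130 CPM in marrow cells, but at 2370 CPM in the marrow cells above the macrophage limit, and its direction turned when that limit was dropped (log2 ratio -1.66). IL18, an inflammasome cytokine outside the list, stood at 109 and 7.99 CPM (13.7-fold). In the free RNA of marrow CCL2 stood at 894 CPM, against 280 CPM in that of adipose tissue.

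LGALS3 (galectin-3) and HMOX1 (heme oxygenase 1) were higher in adipose cells, at 2202 against 478 CPM (4.61-fold) and at 289 against 69.8 CPM (4.14-fold). Both were also high in the marrow cells above the macrophage limit, at 2543 and 364 CPM. GPNMB, a membrane glycoprotein of macrophages and some stromal cells, stood at 118 CPM in adipose and 12.5 CPM in marrow cells, and at 354 CPM in the marrow cells above the limit. Without the macrophage limit both LGALS3 and HMOX1 were under 2-fold apart, and GPNMB had a log2 ratio of -0.16.

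Of 11 measured genes of antigen presentation on class I molecules, 1 was at least 2-fold higher in marrow and 0 in adipose cells. Of all 6812 genes measured in the same way, 122 were higher in marrow and 111 in adipose cells. The median log2 ratio was -0.71. The immunoproteasome subunit PSMB8 stood at 12.3 CPM in adipose and 73.7 CPM in marrow cells (5.98-fold), and PSMB9 at 5.55 and 30.6 CPM. B2M, the common light chain of class I molecules, stood at 772 and 1455 CPM, while the chaperones CALR and PDIA3 stood at 1845 and 501 CPM in adipose cells and at 1657 and 402 CPM in marrow cells. None of 7 measured interferon-stimulated genes reached the limit of 2-fold and 50 CPM. Their median log2 ratio was -0.48, with 3 members above 0 and 4 below. Under the 50 CPM limit, IFI6 stood at 7.81 CPM in adipose and 46.6 CPM in marrow cells, and MX1 at 3.29 and 25.5 CPM.

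**Figure D2:**
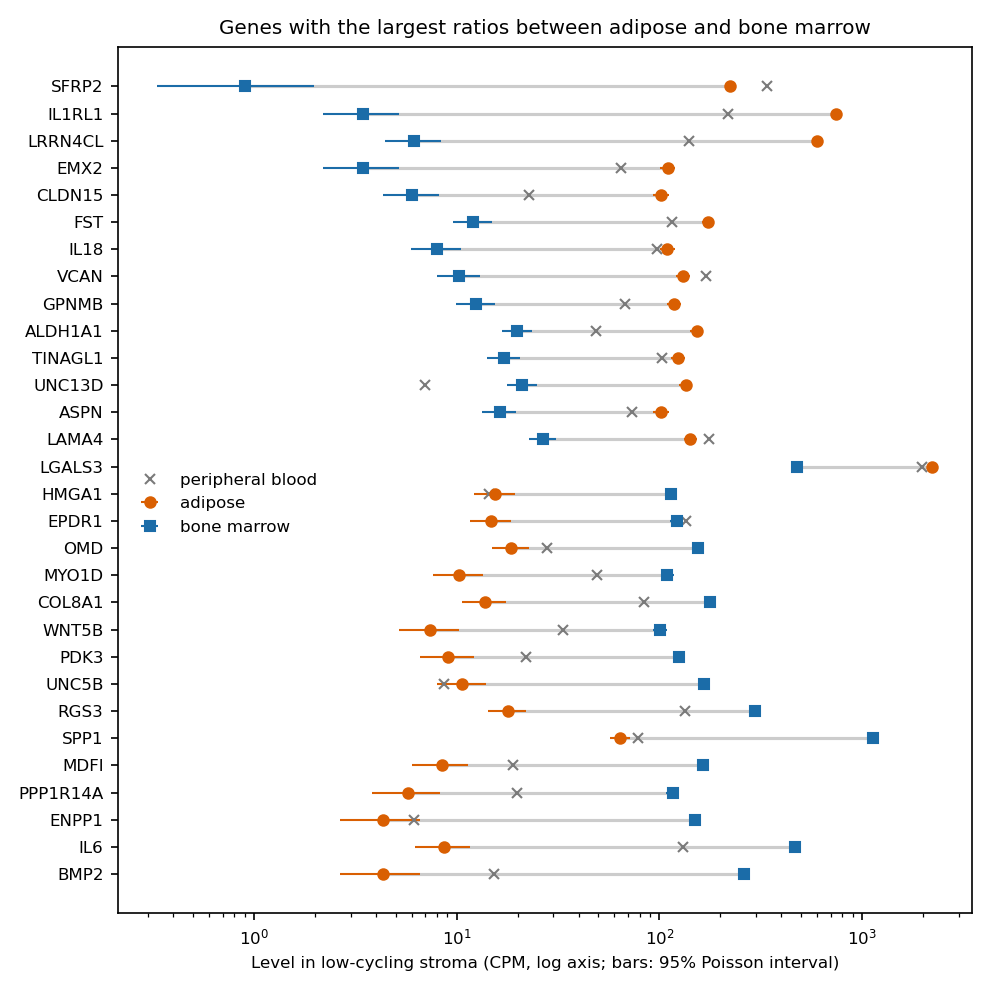
Level in CPM on a log axis in low-cycling stroma of adipose tissue (orange circles), bone marrow (blue squares) and peripheral blood (grey crosses) for the 15 genes of largest ratio in each direction among those with a symbol and at least 100 CPM in the higher tissue; bars are 95% Poisson intervals and lines join both tissues. SFRP2 ran from 0.904 CPM in marrow to 223 CPM in adipose cells, and BMP2 from 4.31 CPM in adipose to 262 CPM in marrow cells.

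The largest differences in RNA of matrix genes lay outside the main fibril collagens. Of 15 measured collagens 2 were at least 2-fold higher in each tissue. COL1A1, the main chain of bone and skin collagen, stood at 2809 CPM in adipose and 5458 CPM in marrow cells (1.94-fold), COL1A2 at 2918 and 3900 CPM, and COL3A1 at 791 and 579 CPM. COL1A1 was under 2-fold apart in 15 of 19 settings, with a highest value of 2.27-fold over all of them. COL11A1, a fibril collagen of cartilage, had 0.616 CPM in adipose and 71.7 CPM in marrow cells, a ratio of 116 (39.6 to 566), and COL8A1 stood at 13.8 and 177 CPM (12.9-fold). COL14A1, which coats fibrils, was higher in adipose cells, at 75.8 against 26.2 CPM.

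COL4A1, a basement membrane collagen, stood at 56.3 CPM in adipose and 2.11 CPM in marrow cells, a 26.7-fold difference. Of its adipose UMIs, 44.9% lay in 86 cells that held a UMI of PECAM1, CDH5, VWF, SELE or SELP, endothelial genes. Those 86 cells were part of the 1217 adipose cells, and 25 of them held 2 or more such UMIs. Without cells holding such UMIs COL4A1 was 21.3-fold higher in adipose cells.

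Small leucine-rich proteoglycans, which space and organize collagen fibrils, were mostly on the marrow side. Of 9 measured members 5 were at least 2-fold higher in marrow and 1 in adipose cells, with a median log2 ratio of -1.60. LUM (lumican) stood at 132 CPM in adipose and 595 CPM in marrow cells (4.49-fold), FMOD (fibromodulin) at 28.8 and 148 CPM (5.16-fold), and BGN (biglycan) at 156 and 472 CPM (3.02-fold). OMD (osteomodulin), known from bone, stood at 18.5 and 156 CPM (8.44-fold). ASPN (asporin) was the member higher in adipose cells, at 102 CPM in adipose and 16.3 CPM in marrow cells (6.25-fold). PRELP, under the 50 CPM limit, was also on the adipose side, at 17.3 against 3.92 CPM. DCN (decorin) was nearly level at 482 and 631 CPM.

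Among 19 measured matrix glycoproteins 5 were higher in each tissue. FN1 (fibronectin) stood at 289 CPM in adipose and 990 CPM in marrow cells (3.43-fold), and SMOC1, a calcium-binding matrix protein, at 1.23 and 73.4 CPM (59.5-fold). Adipose cells had more FBLN5, an organizer of elastic fibres, at 70.3 against 0.753 CPM (93.2-fold, 39.6 to 289), and more VCAN (versican), at 131 against 10.2 CPM (12.7-fold). THBS1 (thrombospondin 1), which can release TGF-beta from its latent form, stood at 1065 and 293 CPM, while its relative THBS2 had the opposite order, at 24.0 and 98.1 CPM. LAMA4, a laminin chain of vessel and fat basement membranes, was higher in adipose cells, at 142 against 26.5 CPM. LTBP1, which anchors latent TGF-beta in the matrix, was higher in marrow cells, at 69.3 against 6.16 CPM (11.2-fold), and FBN1 (fibrillin 1) was near level at 510 and 580 CPM.

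Genes that break matrix down or limit its breakdown were closer, with 3 of 18 measured members higher in adipose and 1 in marrow cells. The plasminogen activator PLAT stood at 61.0 CPM in adipose and 7.84 CPM in marrow cells. PLAUR, the receptor of the other plasminogen activator, was higher in marrow cells, at 458 against 172 CPM. CTSK, a collagen-degrading protease of osteoclasts and fibroblasts, stood at 847 and 408 CPM. The osteoclast genes DCSTAMP, OCSTAMP, CALCR and TNFRSF11A were at 0 in both sets. CTSK was under 2-fold apart under 5 settings: 8000 UMIs per cell, a threshold of 8000 UMIs, no macrophage limit and both alternative scalings.

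**Figure D3:**
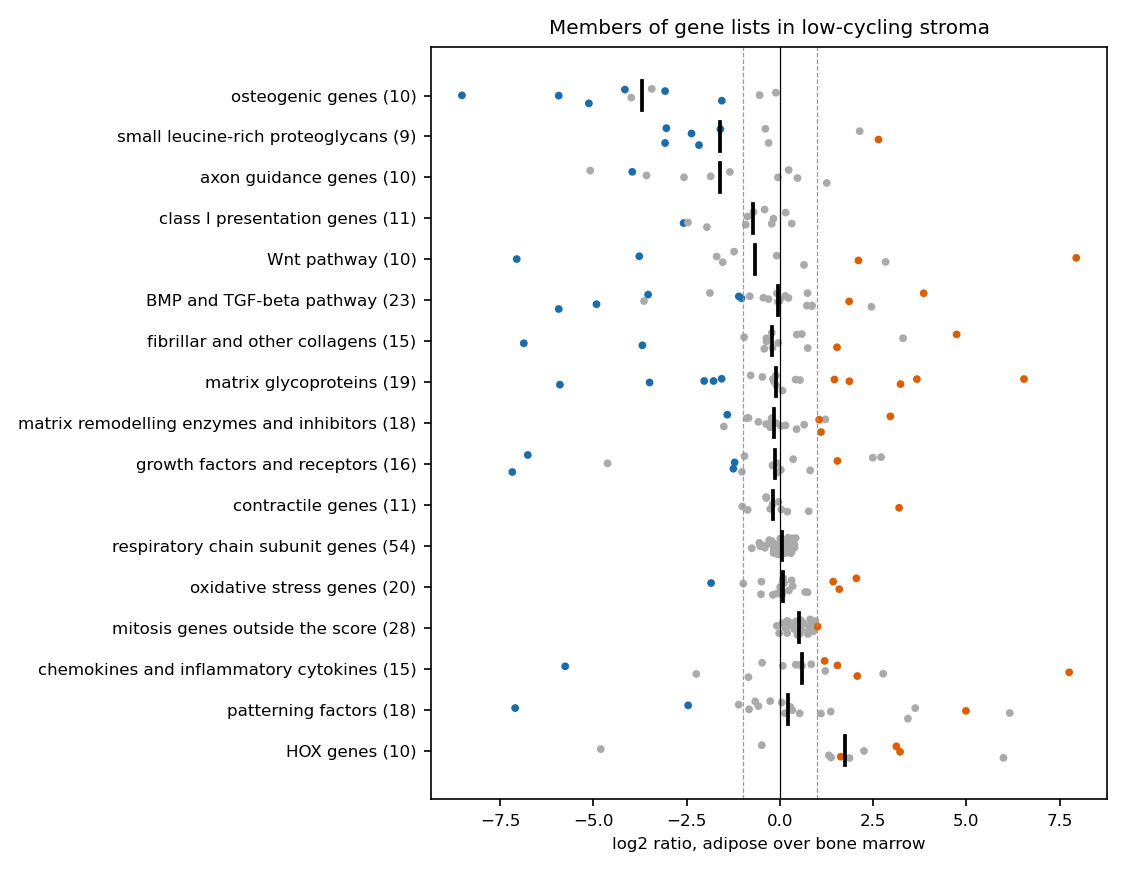
Log2 ratio of adipose over bone marrow (horizontal axis) for each measured member of 17 gene lists, with the number measured in brackets; orange and blue points are members at least 2-fold apart with at least 50 CPM, grey points are the others, black bars are medians and dashed lines mark 2-fold. The median was -3.71 for osteogenic genes, -1.60 for small leucine-rich proteoglycans and 1.75 for HOX genes, while the 54 respiratory chain genes had a median of 0.06.

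Patterning genes were apart in both directions. Of 10 measured HOX genes 3 were at least 2-fold higher in adipose and 0 in marrow cells, with a median log2 ratio of 1.75. Of all 6812 measured genes, 111 were higher in adipose and 122 in marrow cells. HOXB7 stood at 61.8 CPM in adipose and 6.63 CPM in marrow cells (9.33-fold), HOXC8 at 64.3 and 7.38 CPM (8.71-fold), and HOXC6 at 62.0 and 20.04 CPM. HOXB2 stood at 28.8 CPM in adipose cells and had 0 UMIs in marrow cells, at least 63.6-fold lower against a floor of 3 UMIs per library. HOXA11, which marks the forearm and lower leg, had the opposite pattern, with 1.03 CPM in adipose and 28.6 CPM in marrow cells. HOXB2 and HOXA11 lay under the 50 CPM limit.

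Of 18 measured patterning factors outside the HOX clusters, 1 was at least 2-fold higher in adipose and 2 in marrow cells, with a median log2 ratio of 0.21. EMX2, a factor of urogenital and brain development, stood at 110 CPM in adipose and 3.47 CPM in marrow cells (31.7-fold, 20.9 to 50.5). BARX1, a factor of jaw and joint mesenchyme, had 0.616 CPM in adipose and 84.2 CPM in marrow cells, a ratio of 137 (46.5 to 665). IRX3 stood at 39.9 and 219 CPM (5.49-fold). PRRX1, a limb mesenchyme factor used as a stromal marker, was near level at 631 and 520 CPM, and its relative PRRX2 stood at 851 and 1269 CPM.

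Of 16 measured growth factors and receptors, 4 were at least 2-fold higher in marrow and 1 in adipose cells, with a median log2 ratio of -0.14 that was 0.27 without the macrophage limit. FGF5 had 2 UMIs in adipose cells (0.411 CPM) and stood at 59.2 CPM in marrow cells, a ratio of 144 (39.6 to 1194). PDGFA, a ligand for receptors that stromal cells carry, had 0.616 CPM in adipose and 66.6 CPM in marrow cells (108-fold), while its receptor PDGFRA stood at 68.0 and 38.7 CPM. FGF7 stood at 222 and 515 CPM, and PTN (pleiotrophin) at 27.9 and 66.3 CPM. Both were under 2-fold apart without the macrophage limit. PTN was also 1.72-fold apart in cells with 0 UMIs of the 8 score genes after thinning. IGFBP6, which binds insulin-like growth factor 2, was higher in adipose cells, at 729 against 261 CPM.

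Axon guidance genes, which also steer other migrating cells, had a median log2 ratio of -1.60 over 10 measured members. Only UNC5B, a netrin receptor, was at least 2-fold apart with at least 50 CPM, at 10.7 CPM in adipose and 166 CPM in marrow cells (15.5-fold). When cells with endothelial UMIs were left out before the choice of cells, its log2 ratio went from -3.96 to -5.75. Its ligand NTN1 stood below that limit, at 1.03 and 34.8 CPM.

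Housekeeping groups were near level, while some oxidative stress and contractile genes were apart. None of 54 respiratory chain genes, 20 folding genes of the endoplasmic reticulum or 17 cholesterol synthesis genes was at least 2-fold apart. Among 20 oxidative stress genes, 3 were at least 2-fold higher in adipose cells, HMOX1 among them, and 1 in marrow cells. TXNRD1 (thioredoxin reductase) stood at 747 CPM in adipose and 248 CPM in marrow cells and GCLM, of glutathione synthesis, at 82.8 and 30.7 CPM. GPX1 was higher in marrow cells, at 142 against 39.6 CPM. Of 11 contractile genes, CNN1 (calponin) stood at 84.2 and 9.19 CPM, whereas ACTA2 (smooth muscle actin) was level at 174 and 169 CPM.

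Several of the remaining genes of largest ratio have no place in a list. LRRN4CL, a membrane protein, stood at 602 CPM in adipose and 6.18 CPM in marrow cells (97.4-fold, 71.6 to 136). CLDN15, a claudin, stood at 102 and 6.03 CPM, ALDH1A1, which makes retinoic acid, at 153 and 19.9 CPM, TINAGL1 at 124 and 17.0 CPM and UNC13D at 135 and 21.1 CPM. On the marrow side RGS3, which damps signals of G protein-coupled receptors, stood at 17.9 and 297 CPM (16.6-fold). MDFI, an inhibitor of MyoD-family factors, stood at 8.42 CPM in adipose and 164 CPM in marrow cells. PPP1R14A, PDK3, MYO1D, EPDR1 and HMGA1 lay between 5.75 and 15.4 CPM in adipose and between 109 and 125 CPM in marrow cells.

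Low-cycling blood stroma (606 cells chosen in the same way) lay nearer to adipose tissue on a log scale for 12 of the 15 leading adipose genes and for 9 of the 15 leading marrow genes. SFRP2 stood at 340 CPM in blood, LGALS3 at 1968 CPM and SPP1 at 78.4 CPM, each nearer to adipose tissue. EPDR1, at 136 CPM in blood, and RGS3, at 134 CPM, lay nearer to marrow.

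The cells of a library did not carry these genes evenly. At 4000 UMIs per cell, BMP2 had a UMI in 49.9% of marrow cells and 1.64% of adipose cells, and IL6 in 49.1% and 2.71%. If the UMIs of the gene had been spread evenly, 65.0% and 84.5% of marrow cells would have held one. For IL6, the 10% of marrow cells with the most UMIs of the gene held 55.0% of them, with up to 30 UMIs in a cell. DKK1 had a UMI in 17.6% of marrow cells against 27.9% for an even spread, and its leading 10% of cells held 76.8% of its UMIs. In the marrow cells above the macrophage limit (median 8744 UMIs, thinned alike), 18.4% held a UMI of BMP2, 18.5% of IL6 and 8.74% of DKK1, beside stromal markers at 11128 CPM.

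In adipose cells IL1RL1 and LRRN4CL were broad, with a UMI in 78.4% and 76.3% of cells. SFRP2 was narrow, with a UMI in 23.7% of adipose cells against 59.0% for an even spread and up to 59 UMIs in a cell. FST had a UMI in 31.8% of adipose cells against 50.2%. ANKRD1, a target of the YAP pathway, stood at 58.5 CPM in adipose and 0.301 CPM in marrow cells and had a UMI in 5.92% of adipose cells against 20.9%. For SFRP2, 4.24% of the UMIs lay in the 86 cells with endothelial UMIs, and for ANKRD1 24.2%. When cells holding such UMIs were left out before the choice of cells, SFRP2 was 241-fold and ANKRD1 96.0-fold higher in adipose cells.

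FABP5, a fatty acid binding protein, had similar means, 207 CPM in adipose and 193 CPM in marrow cells, but different spreads. A UMI was found in 14.8% of adipose cells, against 56.4% for an even spread, and in 43.9% of marrow cells, against 53.8%. The 86 adipose cells with endothelial UMIs held 81.8% of its adipose UMIs. When cells holding such UMIs were left out before the choice of cells, the log2 ratio of FABP5 was -2.32. The 86 cells also held 98.0% of the adipose UMIs of FABP4, at 20.5 CPM in adipose cells. They held 85.0% of those of CD34, at 4.11 CPM in adipose and 0 UMIs in marrow cells.

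**Figure D4:**
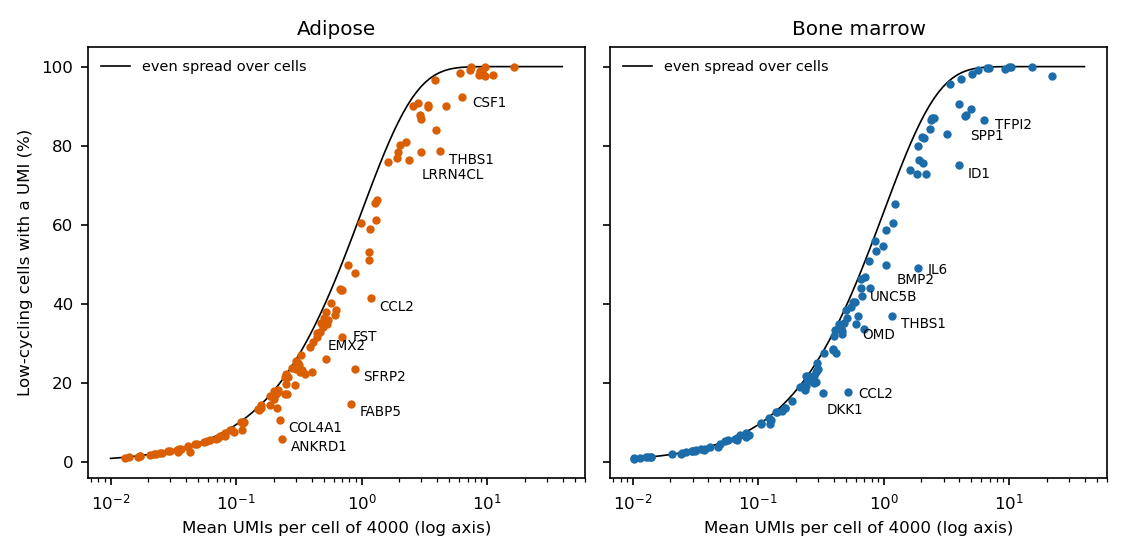
Share of low-cycling cells with a UMI (vertical axis, %) against mean UMIs per cell of 4000 (log axis) for the named genes in adipose tissue (left, orange) and bone marrow (right, blue); the line is the share for an even spread over cells. SFRP2 (23.7%), FABP5 (14.8%) and ANKRD1 (5.92%) lay far below the line in adipose tissue, and IL6 (49.1%), DKK1 (17.6%) and CCL2 (17.7%) in bone marrow.

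The tissue ratios of low-cycling cells were close to those of the remaining stromal cells, 4871 in adipose tissue and 6638 in bone marrow. All 111 genes higher in adipose and all 122 higher in marrow low-cycling cells had the same direction in the remaining cells. By the same limits 82 and 105 genes were apart in the remaining cells. Of these, 75 were shared on the adipose side (67.6% of the low-cycling and 91.5% of the remaining list) and 94 on the marrow side (77.0% and 89.5%). Over 3046 genes the log2 ratio moved by a median of 0.03, with 90% of genes between -0.21 and 0.30, and 14 genes moved by at least 1.

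Genes with at least 100 CPM that moved most included FABP5, with a log2 ratio of 0.10 in low-cycling and -1.63 in remaining cells. When cells holding endothelial UMIs were left out before the choice of cells, its low-cycling value was -2.32. TMEM119, a membrane protein of bone-forming cells, was closer together in low-cycling cells, with 125 CPM in adipose and 31.3 CPM in marrow cells against 86.9 and 9.53 CPM in remaining cells. ASPN was further apart in low-cycling cells (log2 ratio 2.64 against 1.56), since it stood at 102 CPM in low-cycling and 27.2 CPM in remaining adipose cells. IRX3 was further apart on the marrow side, with a log2 ratio of -2.46 against -1.70. ID1 went from -0.52 in remaining to 0.23 in low-cycling cells, as marrow cells held 1786 CPM in the remaining and 998 CPM in the low-cycling set. TFPI2, a protease inhibitor, stood at 1587 CPM in low-cycling and 2192 CPM in remaining marrow cells.

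**Figure D5:**
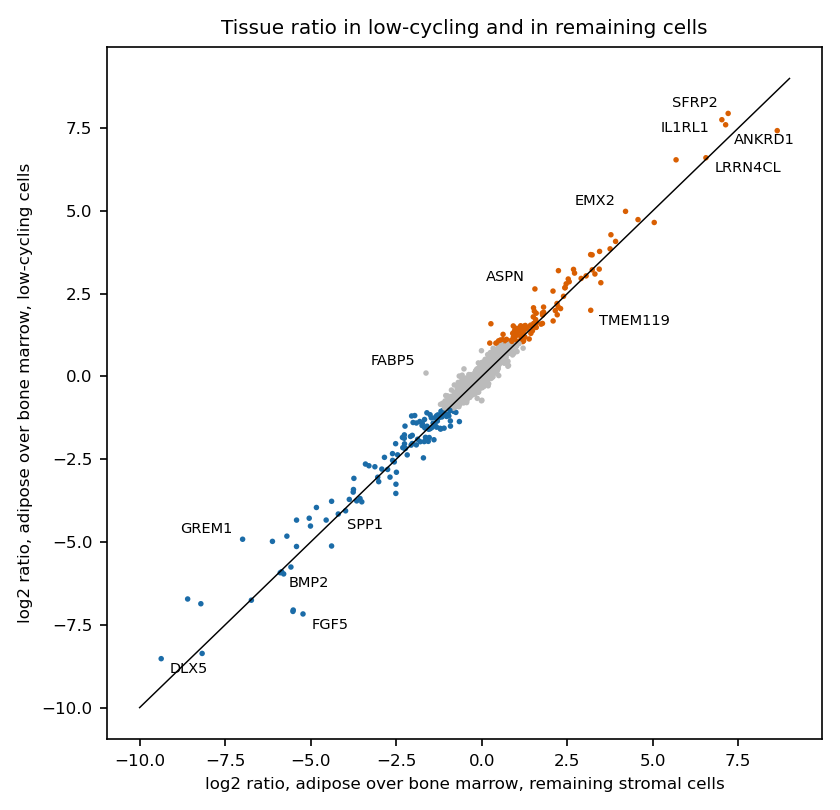
Log2 ratio of adipose over bone marrow in low-cycling cells (vertical axis) against the same ratio in the remaining stromal cells (horizontal axis) for 3046 genes; orange and blue points were at least 2-fold higher in low-cycling adipose or marrow cells, and the line marks equal ratios. No gene apart in low-cycling cells had the opposite sign, and FABP5 lay at 0.10 against -1.63. Its low-cycling ratio was -2.32 when cells with endothelial UMIs were left out before the choice of cells.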

How the data were processed

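The deposited values are counts of UMIs per gene and barcode, made by the authors with Cell Ranger (per the submitters' processing notes version 6.1.1 with genome build ARS-UCD1.2, per the file headers version 4; which of them made the matrices was not settled). The tables held 21861 genes, 4579 of them without a symbol, and 1472552 to 2479370 barcodes per library, with 99356868 UMIs in adipose tissue and 106322567 in bone marrow. No coordinates or sequences were used.

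The UMI minimum for a cell was the 99th percentile of UMI totals among the 3000 largest barcodes, over 10. Each cell was thinned without replacement to 4000 UMIs with a fixed seed. UMIs were summed per library and divided by the total (CPM). A gene was apart at a ratio of at least 2 with at least 50 CPM in the higher library. Ratios against 0 UMIs used a floor of 3 UMIs per library. Intervals are exact Poisson, conditional binomial and Clopper-Pearson intervals at 95%. List medians used members with a mean of at least 10 CPM. No doublet caller was applied; leaving out cells with over 2 times the median UMIs was an alternative. Calculations used Python 3.11.15, numpy 2.4.6, scipy 1.17.1 and pandas 2.3.3 and were tested on simulated data. TMM factors of edgeR 4.0.16 and size factors of DESeq2 1.42.0 served as alternative scalings, with no test.

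The cells, lists and rules were chosen with earlier results of these data known. Named genes were the 15 largest ratios in each direction with a symbol and at least 100 CPM that are neither mitochondrial nor ribosomal, list members at least 2-fold apart, the highest member of each list, 8 surface markers, the genes of the rule and the 10 genes of at least 100 CPM whose ratio moved most. Lists are summarised by some of these, and other list members were named after their values were seen. Near-identical family members can share reads. The 984 marrow cells above the macrophage limit were profiled after the data were seen. Some list members are not reported here.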

Additional observations from a re-analysis of the deposited data

How the results depend on the processing

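With 1 library per tissue no replicate could be left out, and no paired analysis was possible because each tissue has 1 library, so the groups share fewer than 2 replicate numbers. Of 97 named genes at least 2-fold apart, 3 changed sign under any of 17 planned and 2 added settings, and 20 fell under 2-fold under at least 1. Without the macrophage limit 134 genes lay on the adipose side and 243 on the marrow side, and GPNMB (log2 ratio -0.16) and CCL2 (-1.66) reversed. With the score limit of bone marrow in both libraries, MKI67 reversed (-0.0544). The adipose progenitor list had a median of -0.18 among members with a mean of at least 50 CPM, against 1.27 with the limit of 10 CPM. The limit on level set the counts of genes higher in adipose and in marrow: 334 and 334 at 10 CPM, 63 and 66 at 100 CPM, and 1069 and 968 with no limit. Other settings gave between 84 and 124 genes on the adipose side and between 107 and 135 on the marrow side, including other thinning depths, other shares of the score, no cells with endothelial UMIs and both alternative scalings. The marrow score limit in both libraries (657 adipose cells) and cells with 0 UMIs of the 8 genes after thinning (752 and 1579 cells) were chosen after seeing the data. Of 36 medians, that of all genes included, 23 took the opposite sign under at least 1 setting; the medians of osteogenic genes (-4.32 to -3.08), small leucine-rich proteoglycans (-1.74 to -1.24), axon guidance genes (-1.96 to -0.45), class I genes (-0.88 to -0.29) and HOX genes (1.37 to 2.13) did not. Log2 ratios of marrow genes with at most 3 adipose UMIs ran from -8.73 to -5.92 for DLX5, -7.59 to -4.55 for FGF5, -7.65 to -4.96 for BARX1, -8.49 to -5.86 for DKK1, -8.41 to -5.02 for COL11A1 and -8.21 to -5.13 for PDGFA. At 8000 UMIs per cell 147 adipose and 809 marrow cells were too shallow. The cause of these changes was not tested.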

Other observations

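Within each library, some genes outside the score were also higher in low-cycling than in remaining cells. The cells were chosen on this contrast, so these values are a description. Of 3125 genes, 40 were at least 1.5-fold higher in low-cycling cells of both libraries. NUPR1, a stress-induced chromatin protein, stood at 135 CPM in low-cycling and 54.4 CPM in remaining adipose cells, and at 225 and 95.4 CPM in marrow cells. The cell cycle inhibitor CDKN1A (p21) stood at 211 and 121 CPM in adipose and at 167 and 88.0 CPM in marrow cells, and GADD45A, a DNA damage and stress gene, at 98.8 and 54.4 CPM and at 164 and 97.2 CPM. CCND2, a D-type cyclin, was also higher in low-cycling cells, at 133 against 63.1 CPM in adipose and 68.9 against 36.3 CPM in marrow cells. CCN2, a target of YAP and TGF-beta, stood at 977 against 457 CPM in adipose and 1253 against 674 CPM in marrow cells. COL3A1 stood at 791 against 486 CPM and at 579 against 302 CPM. The named genes here were chosen after their values were seen.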
